A study of Mus musculus with 6 samples.

Results

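The expression of potassium channel genes was set side by side in Dicer mutant and control mouse hearts of embryonic day 11.5, on 6 single-colour CodeLink arrays. The genes were taken by name: every probe listed with 1 gene symbol that begins with Kcn, 118 probes of 78 genes. Of these, 58 genes had a probe above background on 3 or more arrays and were tested, by the brightest such probe, among 15012 genes tested in all. The mutant group comprised 3 arrays of hearts in which a Cre recombinase knocked into the Nkx2.5 locus had inactivated Dicer, the enzyme that releases mature miRNAs from their precursors. The control group comprised 3 arrays of hearts with no genotype stated in the labels. Cre placed in that locus acts in cardiac progenitors and their descendants, so blood and other cells of the dissected heart may keep Dicer. Whether separate embryos or pools were hybridized is not stated, so the p-values below measure the spread between these arrays alone.

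Potassium channels let potassium leave the cell and so end the cardiac action potential and hold the resting potential. The voltage-gated pore subunits open on depolarization, the inward rectifiers and the two-pore-domain leak channels set the resting potential, and the calcium-activated channels couple calcium signals to the membrane. Silent modifier subunits and auxiliary subunits carry no current alone and change the gating or trafficking of pore subunits. The muscle miRNAs miR-1 and miR-133 have been reported to repress several of these genes, among them Kcnj2, Kcnh2 and Kcnq1.

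No potassium channel gene passed the test: 0 of 58 had a limma adjusted p under 0.05, against 0.06% of all genes tested (9 genes). The smallest adjusted p was 0.178, for Kcnd2. At an unadjusted p under 0.05 there were 6 genes, 3 higher and 3 lower in the mutant, where 10.2% of all genes lay under that p (6.71% higher and 3.47% lower). The higher values were those of Kcnq1, Kcnmb1 and Kcnk3, and the lower ones those of Kcnd2, Kcnn1 and Kcnn2. The median log2 difference, mutant minus control, was -0.03 over the 58 genes and 0.01 over all genes. A difference below 0 was found for 36 of the 58 genes, and one above 0 for 37.9%, against 52.4% of all genes. In 32 of the 58 genes the difference was smaller than 0.2 in size.

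**Figure D1:**
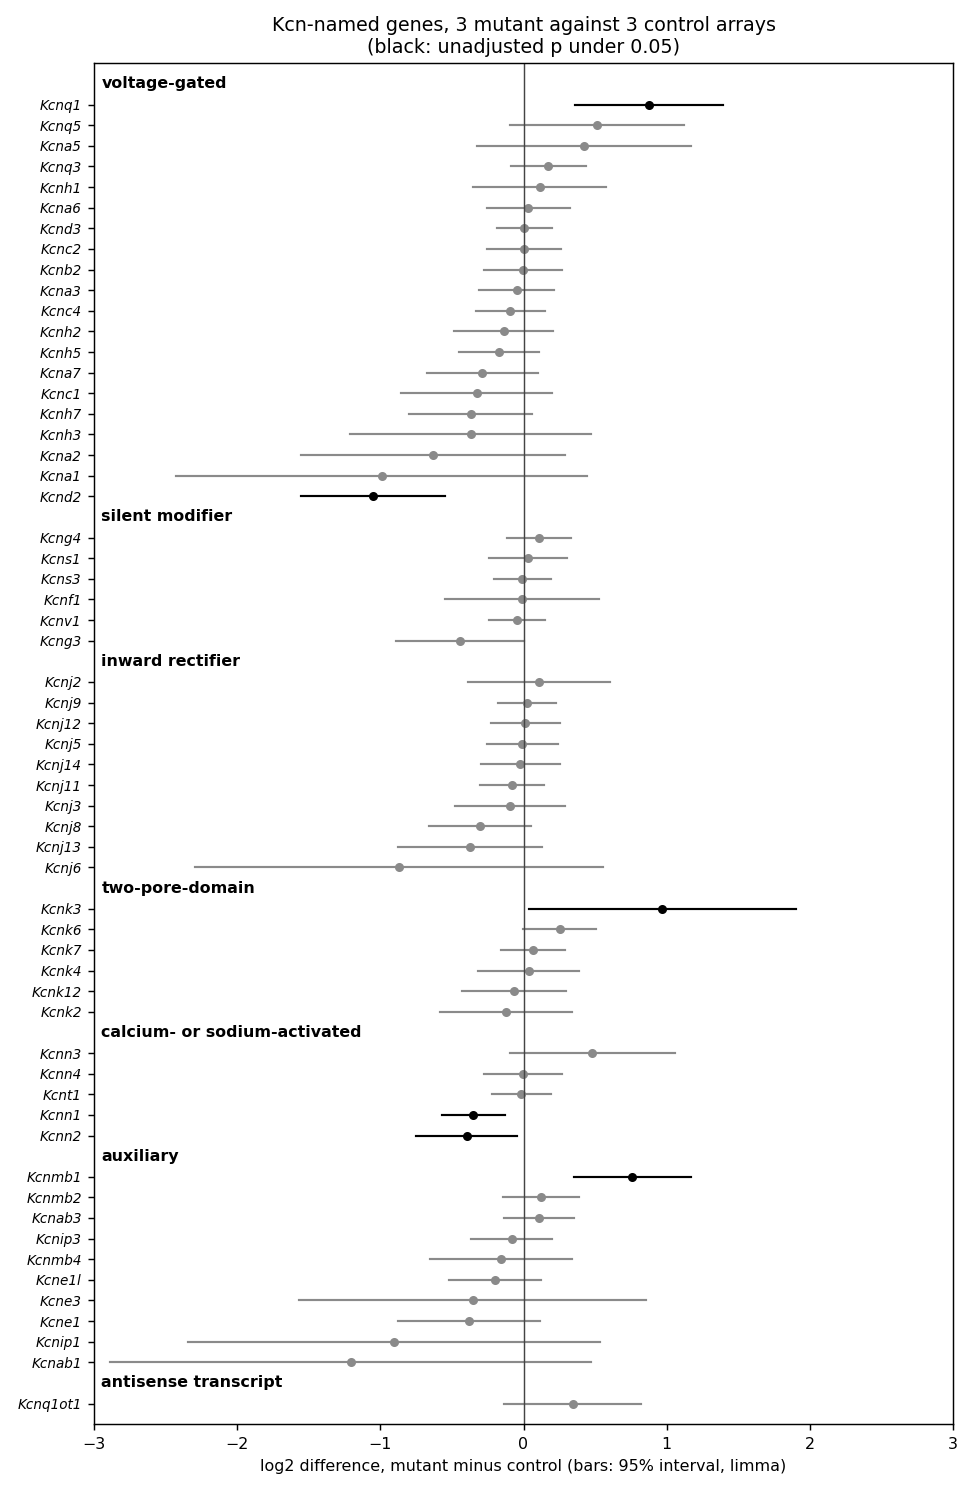
Log2 difference of each of the 58 tested genes (x axis, mutant minus control, 3 arrays per group) with its 95% interval from limma, by role; black marks an unadjusted p under 0.05. Most intervals include 0, and the widest belong to Kcnab1, Kcnip1, Kcna1 and Kcnj6.

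In 8 of the 58 genes all 3 mutant arrays lay on the same side of all 3 control arrays, 5 higher and 3 lower. Over all genes this was so for 15.2%, 9.72% higher and 5.48% lower, so the channel genes were near the background. The 8 genes were 5 of the 6 above, without Kcnk3, and 3 further genes described below, Kcnn3, Kcnk6 and Kcng4. Signals are given as log2 normalized intensity. The background correction adds an offset that draws the differences of dim probes towards 0, and 19 of the 58 genes had a mean signal under 7 (27.4% of all genes).

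Kcnd2, which encodes a pore subunit of the transient outward current of early repolarization, had the smallest p of the channel genes by their brightest probes. Its signal was 6.74, 6.51 and 6.24 in mutants 1 to 3 and 7.27, 7.43 and 7.94 in controls 1 to 3. Every mutant array lay below every control array, and the signal was low, above background on 2 of the 3 mutant arrays and on all controls. The log2 difference was -1.05 ± 0.21 (SE), a mutant level 0.482 of the control level (95% interval 0.341 to 0.682), and it missed the threshold (limma adjusted p = 0.178). Since the groups did not overlap, leaving out any array could not change the sign. The difference then ran from -1.19 without control 1 to -0.85 without control 3. Its size depended on the background correction, at -1.88 with plain subtraction, and was -0.65 with the title-start block described below. Kcnd3, the other measured subunit of that current, gave 0.01 ± 0.08, with signals between 6.75 and 6.81 on all 6 arrays. Of the auxiliary subunits that Kcnd channels bind, Kcnip2 was above background on 0 arrays, and Dpp6 and Dpp10 gave -0.06 and 0.09. Irx5, a homeobox repressor of Kcnd2 in the ventricle and a reported miR-1 target, gave -0.07 ± 0.13, with 9.50, 9.13 and 9.51 in the mutants, against 9.45, 9.37 and 9.53 in the controls.

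Kcnq1, the pore subunit of the slow delayed rectifier, had signals of 8.29, 8.53 and 9.12 in the mutants, against 7.63, 7.78 and 7.90 in the controls. All mutant arrays lay above all controls, with mutant 3 the highest. The log2 difference was 0.88 ± 0.22 (SE), or 1.84-fold (95% interval 1.28 to 2.62, limma adjusted p = 0.251). Its auxiliary subunit Kcne1 gave the opposite sign, -0.38 ± 0.21, with 8.54, 8.58 and 8.28 in the mutants, against 8.53, 8.72 and 9.29 in the controls. The groups of Kcne1 overlapped, control 3 stood above the other arrays, and the difference was -0.16 without that array and 0.03 with the title-start block. Kcnq1ot1, a noncoding RNA transcribed antisense within Kcnq1 and imprinted in the embryo, is no channel but carries the name, and gave 0.34 ± 0.20. That value rested on mutant 1, at 13.28 against 12.48 to 12.75 on the other 5 arrays, and was 0.12 without it. The 6 dimmer probes of Kcnq1ot1 gave -0.12 to 0.24.

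**Figure D2:**
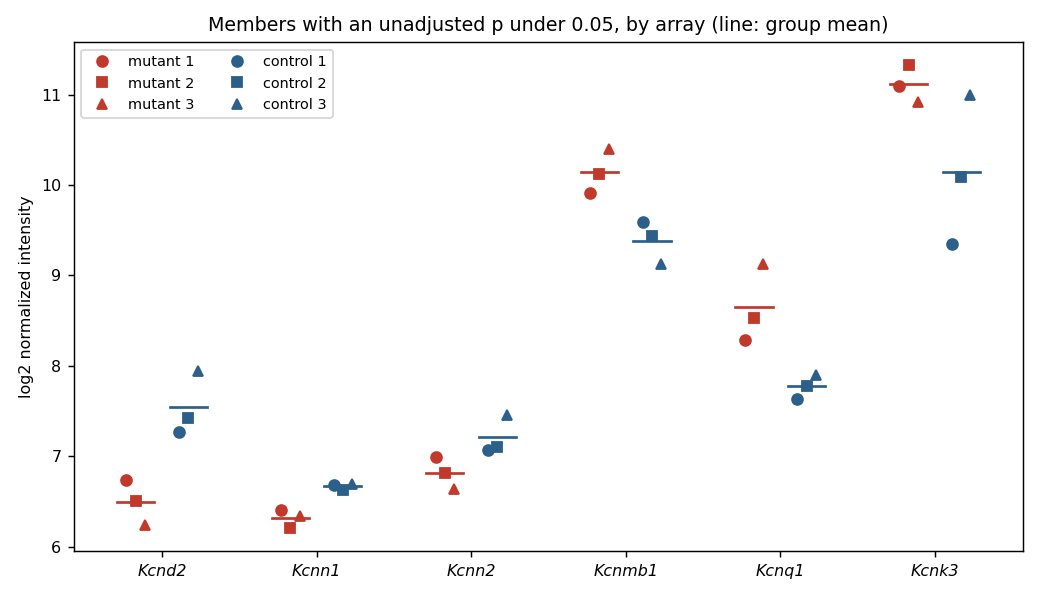
Log2 normalized intensity (y axis) of the 6 genes with an unadjusted p under 0.05, one symbol per array and a line at each group mean (n = 3 each). The groups are separate in 5 genes, and in Kcnk3 control 3 lies among the mutants.

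The remaining voltage-gated pore subunits held no further gene with an unadjusted p under 0.05. The group counted 20 tested genes of 24 on the array, 8 above 0 and 12 below, with a median of -0.07. Kcnh2, the pore subunit of the rapid delayed rectifier, gave -0.14 ± 0.14 (SE), with 6.79, 6.92 and 7.26 in the mutants, against 7.10, 7.26 and 7.02 in the controls. Kcnh7, a related subunit, gave -0.37 ± 0.18: mutants 1 and 2, at 9.65 and 9.91, lay below the controls at 10.28 to 10.41, and mutant 3, at 10.35, lay among them. Kcna5, the pore subunit of the atrial ultrarapid current, gave 0.42 ± 0.31, with 8.66, 9.03 and 8.22 in the mutants, against 7.76, 8.07 and 8.81 in the controls. That value was 0.19 without control 1 and 0.72 without control 3. Of Kcnq5, a subunit related to Kcnq1, the brighter probe gave 0.52 ± 0.25 and overlapped between groups. The 6 silent modifier genes ran from -0.44 for Kcng3 to 0.11 for Kcng4. Kcng3, a subunit that carries no current alone, had 9.27, 9.22 and 9.42 in the mutants, against 10.10, 9.76 and 9.38 in the controls. Kcng4 did not overlap between the groups, at 7.56 to 7.77 against 7.52 to 7.55, although its difference was only 0.11 ± 0.09.

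Among the inward rectifiers none of 10 tested genes had an unadjusted p under 0.05 or groups that did not overlap, by their brightest probes. Kcnj2, the main subunit of the cardiac inward rectifier current and a reported target of miR-1, gave 0.11 ± 0.21 (SE). Its signals were 9.72, 9.67 and 10.22 in the mutants, against 10.06, 9.77 and 9.46 in the controls, so the groups overlapped widely. The 95% interval of that difference ran from -0.39 to 0.61, and the value changed sign, to -0.07 without mutant 3, to -0.04 without control 3 and to -0.36 with the title-start block. Kcnj12, a second subunit of the same current, gave 0.01 ± 0.10, with group means of 8.87 and 8.86. The subunits of the ATP-sensitive channel gave -0.31 ± 0.15 for Kcnj8 and -0.08 ± 0.09 for Kcnj11, and the sulfonylurea receptors that surround them -0.19 for Abcc8 and 0.01 for Abcc9. Kcnj8 had 6.25, 6.66 and 6.49 in the mutants, against 6.59, 6.76 and 6.98 in the controls, near the lower end of the signal range. Kcnj3, which forms the acetylcholine-gated atrial channel together with Kcnj5, gave -0.10 ± 0.16, with 8.32, 8.26 and 8.54 against 8.72, 8.50 and 8.18.

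The probes of Kcnj5 disagreed. The brighter, number 31051, gave -0.01 ± 0.10 (SE), with 8.37 to 8.58 in the mutants, against 8.39 to 8.59 in the controls. The dimmer, number 18926, gave 8.31, 8.57 and 8.04 in the mutants, against 7.64, 7.27 and 7.26 in the controls. On that probe all mutant arrays lay above all controls, with a difference of 0.92 ± 0.17 and a limma adjusted p of 0.161, the smallest among the 82 tested probes of these genes. The part of the transcript that each probe detects is not known here. The dimmer probe of Kcnq5 likewise did not overlap, with a difference of 0.34 ± 0.12. Among the 17 genes with several tested probes, Kcnab1 gave -1.21 by its brighter and 0.01 by its dimmer probe, and Kcnj6 -0.87 and -0.15. Both dimmer probes of Kcnh3 lay within 0.1 of 0, against -0.37 for the brightest. These probe pairs were picked after their values were seen.

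**Figure D3:**
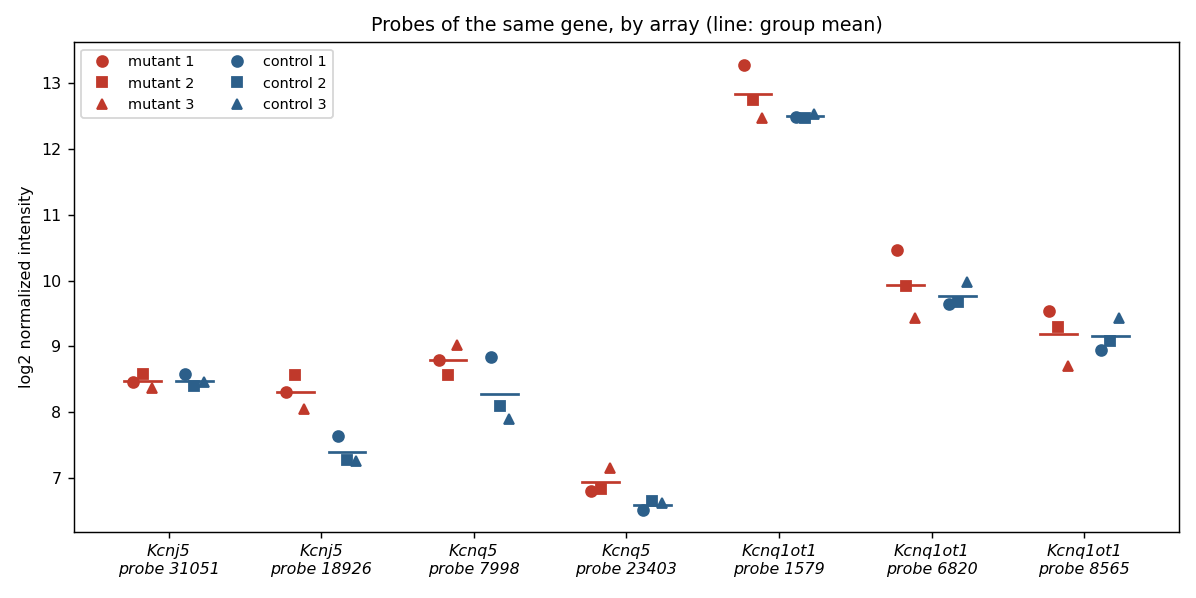
Log2 normalized intensity (y axis) by array for the probes of Kcnj5 and Kcnq5 and the 3 brightest of Kcnq1ot1, with a line at each group mean (n = 3 each). Probe 18926 of Kcnj5 separates the groups and probe 31051 does not.

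Among the two-pore-domain leak channels Kcnk3, an acid-sensitive background channel of the heart, had the largest positive difference of all 58 genes, 0.97 ± 0.39 (SE), or 1.96-fold (95% interval 1.03 to 3.73, limma adjusted p = 0.48). Its signals were 11.10, 11.32 and 10.92 in the mutants, against 9.35, 10.09 and 11.00 in the controls. Control 3 lay within the mutant range, and the difference was 0.57 without control 1 and 1.40 without control 3 (limma adjusted p = 0.0523). Kcna5 was likewise lowest in control 1 and high in control 3. Of the 8 cardiomyocyte markers, 5 were likewise lowest in control 1, Actc1 and Myl7 among them. So were 10 of 28 other genes of potassium handling and excitability, and the share over all genes was not counted. The mean log2 signal of the 8 markers was 11.75, 11.90 and 12.39 in controls 1 to 3 and 12.10 to 12.17 in the mutants. Saturation limits these values, on all 6 arrays for Actc1 and Myl7, on 3 for Tnni1 and on 2 for Myl4. Tnnt2, not saturated, had 13.81, 14.12 and 14.56 in controls 1 to 3, whereas Ryr2, also not saturated, was highest in control 1 at 6.72. In RNA of a whole heart, fewer cells of a type and less RNA per cell cannot be told apart, and the part of these markers in the result was not tested. Kcnk6, another background channel, gave 0.25 ± 0.11, with 9.66, 9.55 and 9.54 in the mutants, against 9.38, 9.45 and 9.16 in the controls, which did not overlap. Kcnk2, a mechanically gated channel of the same family, gave -0.13 ± 0.19.

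The calcium-activated channels of small conductance, which are gated by calmodulin, gave differences of both signs. Kcnn1 had 6.41, 6.21 and 6.34 in the mutants, against 6.68, 6.63 and 6.70 in the controls, a difference of -0.35 ± 0.09 (SE, limma adjusted p = 0.271). Kcnn2 had 6.99, 6.82 and 6.64 in the mutants, against 7.07, 7.10 and 7.46 in the controls, a difference of -0.40 ± 0.15 (adjusted p = 0.436). In both genes every mutant array lay below every control, in a range where the offset compresses differences, and with plain background subtraction the values were -0.87 and -0.68. Kcnn3 went the other way, with 9.54, 9.79 and 9.59 in the mutants, against 9.40, 9.48 and 8.59 in the controls. Its difference of 0.48 ± 0.24 was 0.20 without control 3. Kcnn4 and the sodium-activated Kcnt1 gave -0.00 and -0.01. Kcnma1, the pore of the large-conductance channel, has 3 probes, none above background on more than 1 array, and was not tested.

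Kcnmb1, the auxiliary subunit that raises the calcium sensitivity of that large-conductance channel in smooth muscle, had 9.92, 10.12 and 10.40 in the mutants, against 9.59, 9.44 and 9.13 in the controls. All mutant arrays lay above all controls. The log2 difference was 0.76 ± 0.17 (SE), or 1.69-fold (95% interval 1.28 to 2.25, limma adjusted p = 0.215), and it was 0.43 with the title-start block. The smooth muscle markers were above 0 in 3 of 3 measured genes, with 0.48 ± 0.11 for Cnn1, 0.34 ± 0.27 for Myh11 and 0.11 ± 0.14 for Acta2. Myh11 and Acta2 overlapped between the groups. In mutant 3, where Kcnmb1 was highest, Myh11 was 7.47, below controls 1 and 2 at 7.94 and 7.76. The mean signal of the 3 markers was 11.51 to 11.71 in the mutants, against 11.26 to 11.33 in the controls. Their part in the Kcnmb1 result was not tested. The other large-conductance auxiliary subunits, Kcnmb2 and Kcnmb4, gave 0.12 and -0.16. Of the 10 auxiliary genes tested, 7 lay below 0, with Kcnab1 the lowest of all 58 genes at -1.21 ± 0.70.

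Kcnab1, a beta subunit that speeds inactivation of Kcna channels, had 9.41, 8.99 and 10.87 in the mutants, against 11.83, 11.48 and 9.59 in the controls. Controls 1 and 2 were the highest arrays, and control 3 lay well below them, here within the mutant range. The difference was -0.78 without control 1 and -1.90 without control 3. The dimmer probe of Kcnab1, at 6.34 to 6.43 on all arrays, did not show this. Kcnj6, a G-protein-gated inward rectifier, showed the same array pattern by its brighter probe, with a difference of -0.87 ± 0.60 (SE). That probe gave 11.56, 10.46 and 11.05 in the mutants, against 12.76, 12.39 and 10.53 in the controls. The dimmer probe of Kcnj6 did not show the pattern, with 9.74, 9.84 and 9.40 in the mutants, against 9.61, 9.64 and 10.18 in the controls. Controls 1 and 2 were highest and control 3 far below them also in Kcnip1, a calcium-binding subunit of Kcnd channels (9.03 in control 3 against 11.39 and 10.91 in controls 1 and 2) and in Kcna1, a neuronal delayed rectifier (7.83 against 9.98 and 9.86). In Kcna2 and Kcnh3 the controls spanned 1.26 and 1.25. A dimmer probe of Kcna2 showed the pattern as well, at 9.44, 9.12 and 7.95 in controls 1 to 3. The dimmest tested probe of Kcna2 and both dimmer probes of Kcnh3 did not. By the brightest probes, control 3 lay below all mutants in Kcnip1 and Kcnh3 and within the mutant range in the other 4 genes. In 8 of the 58 genes (13.8%) the controls spanned more than 1 on the log2 scale, against 5.53% of all genes; the other two were Kcnk3 and Kcna5, where control 3 was the highest control. Of these, Kcnip1, Kcna1, Kcna2 and Kcnh3 were picked after their values were seen.

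Controls 1 and 2 were the 2 highest arrays in 12 of the 58 genes (20.7%), and in 15.2% of all genes. A pair that crosses the groups, control 1 and mutant 3, was highest in 11 of the 58 (19.0%) and in 7.92% of all genes, among them Kcnh7, Kcnj2, Kcnj3 and Kcnq5. Of 9 erythroid markers measured, the 5 outside the globins (Alas2, Slc4a1, Epb42, Gata1 and Rhag) were highest in controls 1 and 2. Of the 4 globins, 3 were saturated on all 6 arrays. The other globin, Hba-a1, was not saturated and went the other way, lowest in control 1 at 13.46 and highest in control 3 at 13.96. The mean erythroid signal was 12.33 and 12.22 in controls 1 and 2, 11.53 in control 3 and 11.48 to 11.84 in the mutants. The neural markers were dim, with a mean signal between 6.90 and 7.05 on every array, and 3 of the 7 measured were highest in controls 1 and 2. The part of these cells in the channel pattern was not tested. Without control 3 the number of channel genes at an unadjusted p under 0.05 was 16, of which 12 were lower, and 0 passed by their brightest probes. In that fit 21.8% of all genes lay under that p, 10.9% lower, and 1.94% passed. A dimmer probe of Kcna2 passed there, at -1.08 (limma adjusted p = 0.0428). Kcna1 then gave -1.69 (limma adjusted p = 0.0594), Kcnip1 -1.61 (adjusted p = 0.0574) and Kcnj6 -1.55 (adjusted p = 0.0726). The arrays of mutants 1 and 2 and control 1 share the start of their titles. With that start as a block, mutants 1 and 2 are compared with control 1 alone, without a control replicate. The spread between controls does not enter that fit, so its passes cannot show a difference between the groups. The differences there were -2.63 for Kcnab1, -0.86 for Kcng3, 1.09 for Kcna5 and 1.86 for Kcnk3. Control 1 was the highest control in Kcnab1 and Kcng3 and the lowest in Kcna5 and Kcnk3. In that fit 7.91% of all genes passed.

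**Figure D4:**
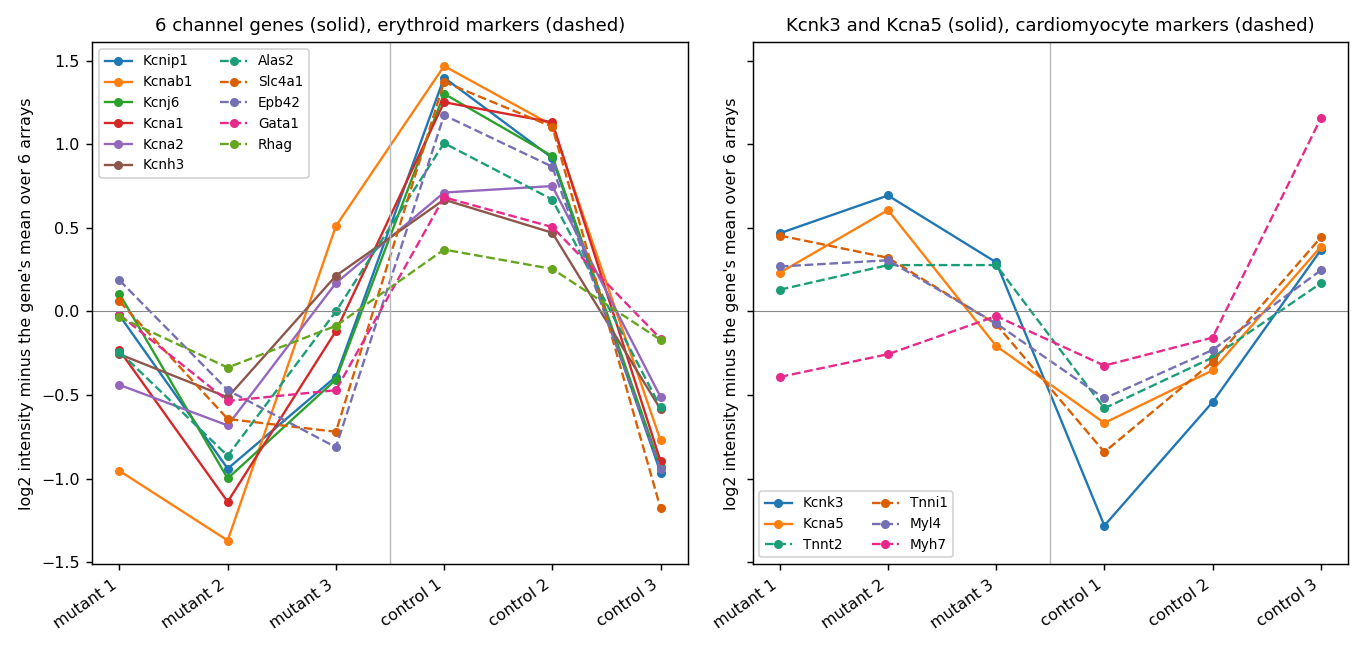
Log2 intensity minus the gene's mean over the 6 arrays (y axis) on each array (x axis), with lines that only join the points of a gene. Left, 6 channel genes by their brightest probes and 5 of the 9 erythroid markers measured, those highest in controls 1 and 2. Right, Kcnk3 and Kcna5 with 4 of the 8 cardiomyocyte markers, most of these 4 lowest in control 1. Not drawn are Ryr2, highest in control 1, Myh6, lowest in control 2, and the saturated Actc1 and Myl7.

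Other genes of potassium handling and excitability were counted from a list, of which 28 of 44 were measured. None passed limma's test, and 15 lay above 0 and 13 below. Over all genes, 10.2% had an unadjusted p under 0.05, and 6.71% of all genes did so on the higher side. Of the 28 genes, 5 lay under that p, all higher in the mutant. These were the potassium-chloride cotransporters Slc12a7 (0.64 ± 0.15, SE) and Slc12a4 (0.34 ± 0.11), the sodium pump subunit Atp1b1 (0.61 ± 0.18), and the T-type and L-type calcium channel subunits Cacna1h (0.60 ± 0.18) and Cacna1c (0.56 ± 0.20), with limma adjusted p from 0.215 to 0.409. In each of them all mutant arrays lay above all controls, which a small p already favours. The 9.72% of all genes with such a separation were not picked by p, so the shares cannot be compared. Cacna2d1, another gene of the list, was also higher without overlap, at 0.16 ± 0.09. The pacemaker channel Hcn3 gave -0.64 ± 0.28, with 8.19 and 8.18 in controls 1 and 2 and 7.40 in control 3. Of 8 genes reported as targets of muscle miRNAs 6 were measured, 2 above 0 (Kcnq1 and Kcnj2) and 4 below, with a median of -0.10; Hcn4 and Gja1 were not measured.

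The upstream sequences of Kcnd2 and Kcnmb1 are shown because these genes had the smallest p in each direction by their brightest probes. They are the 250 bases before the start site in RefSeq's table (GRCm38.p6), both on the plus strand, at chr6:21215096-21215345 and chr11:33962763-33963012. Capitals mark each CG dinucleotide.
Kcnd2: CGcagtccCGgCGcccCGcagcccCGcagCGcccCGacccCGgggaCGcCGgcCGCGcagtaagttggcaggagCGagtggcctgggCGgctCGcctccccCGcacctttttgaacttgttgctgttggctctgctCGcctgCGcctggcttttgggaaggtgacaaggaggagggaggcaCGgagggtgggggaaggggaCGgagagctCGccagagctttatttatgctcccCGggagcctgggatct
Kcnmb1: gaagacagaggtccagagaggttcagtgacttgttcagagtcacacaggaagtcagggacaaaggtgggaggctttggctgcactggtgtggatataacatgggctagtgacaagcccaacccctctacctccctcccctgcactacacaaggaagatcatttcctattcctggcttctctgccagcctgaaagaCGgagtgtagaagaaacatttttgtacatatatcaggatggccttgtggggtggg
The Kcnd2 sequence holds 22 CG dinucleotides and is 68.8% G or C, and that of Kcnmb1 holds 1 and is 50.8% G or C. The medians over all 32851 start sites in the table are 6 and 52.4%. Neither sequence holds the Nkx2-5 element TNAAGTG, the GATA element AGATAA, a MEF2 site or a CArG box on either strand, which 10.1%, 9.99%, 0.508% and 1.47% of all those sequences hold. An upstream sequence was found for 44 of the 58 genes, Kcnq1 not among them.

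Of the 78 genes, 20 were not tested because no probe was above background on 3 arrays, and 12 of these were above background on 0 arrays. Kcnab2 and Kcnj4 came closest, with 2 arrays each, and Kcna3 was just inside, with 3. Among the genes tested, 53 were above background on all 6 arrays, and none passed through 1 group alone. Of the 8 cardiomyocyte markers, Myl7, Actc1, Tnnt2 and Tnni1 were bright on every array, at signals from 13.60 to 15.22. Of these, Myl7 and Actc1 were saturated on all 6 arrays. Ryr2 and Myh6 were dim, at 6.48 to 6.72 and at 5.78 to 6.83, with Myh6 above background on 4 arrays. Dicer1 itself was 6.74, 6.73 and 6.68 in the mutants, against 7.82, 7.63 and 7.71 in the controls, 0.498 of the control level (limma adjusted p = 0.036), although where its probe lies relative to the deleted part is not known here. Each array carried 36227 spots, with 74.1% to 78.2% above background.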

How the data were processed

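Heart RNA was measured on 6 single-colour arrays, 3 of the Dicer mutant group and 3 of the control group. Per the file headers, the authors deposited for each spot a mean intensity, a local background intensity and a quality flag, together with a normalized intensity. Spot and background intensities were corrected with normexp (offset 50, limma 3.58.1 in R 4.3.3), put on a log2 scale and quantile-normalized over the 21880 spots listed with a gene, of which 21676 have 1 gene symbol. Probes not flagged near background on at least 3 arrays were tested with limma's moderated test (lmFit, eBayes), with Benjamini-Hochberg adjustment over all of them at 0.05. A gene was represented by its brightest tested probe. The procedure was also run on simulated data with independent noise on each array. Those data hold no pattern shared between arrays, so they cannot show how such patterns act on the test. Signal ranked probes only to choose them, and the number of arrays limits the precision.

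The members and all gene lists were chosen with earlier results of these data known. The genes named by rule were 16 cardiac channel genes whatever their values, those with an unadjusted p under 0.05 and the brightest of each role. Kcnk6, Kcng4, Kcnk2, Kcnq5, Kcnip1, Kcna1, Kcna2, Kcnh3 and other channel genes given as partners or ends of a range fall outside that rule and were picked after their values were seen. Arrays with the same number in their titles did not deviate together (correlations of 0.014, -0.48 and -0.38), so the numbers were not taken as pairs. Alternatives covered background correction, the deposited normalized intensity and value table, scaling, filters, probes, the variance model, array weights, blocks and each array left out.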

Additional observations from a re-analysis of the deposited data

How the results depend on the processing

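By their brightest probes, channel genes passed in only 2 settings, the array weights and the title-start block. The title-start block compares mutants 1 and 2 with control 1 alone, so its passes rest on 1 control array. With array weights 23 of 58 passed, against 41.6% of all genes, and 31 had an unadjusted p under 0.05, against 51.5%; the weights did not converge and gave control 2 a weight of 151. With the start of the array titles as a block 7 passed, against 7.91% of all genes, 20 had an unadjusted p under 0.05, against 29.0%, and the median difference was -0.13; the cause was not tested. With 1 array left out at a time, 0 passed by their brightest probes, although a dimmer probe of Kcna2 passed without control 3. The genes with an unadjusted p under 0.05 numbered 5 to 16 (4.88% to 21.8% of all genes). Those without overlap numbered 10 to 24 (17.9% to 40.2%), and the median ran from -0.09 to -0.01. Kcnd2, Kcnq1, Kcnmb1 and Kcnn1 had an unadjusted p under 0.05 in all 6 of these fits, Kcnn2 in 3 and Kcnk3 in 1, without control 3. With the replicate block of the title numbers, a paired fit, 0 passed, 4 had an unadjusted p under 0.05 (7.65% of all genes) and the median was -0.03.

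Of 416 values of single genes under the alternatives, 375 kept their direction and side of the threshold, 17 kept their direction and passed, and 24 changed sign, none of them passing. Kcnd3 gave -0.0096 with the authors' normalized intensity, -0.011 with the value table, -0.034 with array weights, -0.0047 with the title-start block, -0.0081 with normalization over all spots, and -0.0068 to 0.025 with 1 array left out. Kcnj12 gave -0.015 with the title-start block and -0.053 to 0.062 with 1 array left out. Kcnj2 gave -0.032 with array weights, -0.36 with the title-start block and -0.065 to 0.26 with 1 array left out. Kcnj5 gave 0.016 with median scaling, 0.45 as the mean of its probes, 0.13 with array weights, 0.00022 with normalization over all spots, and -0.063 to 0.048 with 1 array left out. Kcne1 gave 0.034 with the title-start block and Kcnj3 -0.24 to 0.033 with 1 array left out. Normalization over all spots was chosen after seeing the data, and 0 passed. Dim probes limit what could be seen for 19 of the channel genes.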
